A study of Homo sapiens with 6 samples.

Results

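The DNA damage signalling and repair genes comprised 51 genes, taken as a list of known pathway members. Membership rested on no measured value, although results of these data were already known when the list was drawn up. They were examined by RNA-seq in the human neuroblastoma line SK-N-AS, an established culture, in which Prp19 had been silenced by small interfering RNA (siPrp19) and which was set against cells given a negative control RNA (NC). All 51 were found among the 58735 genes that each library listed, and all 51 were among the 13718 genes tested, which had a mean of at least 1 FPKM (fragments per kilobase of exon, scaled to the depth of the library) over the 6 libraries. The labels give 3 libraries per group and 72 h of treatment for each, and a shorter treatment is stated in the methods. The knockdown was transient and was made in 1 cell line, and neither group carried any other alteration according to the labels. The libraries are called here by the name of their value column, NCa, NCb and NCc or siPrp19a, siPrp19b and siPrp19c. The column NCb is recorded under a sample labelled siPrp19, and the column siPrp19b under a sample labelled NC. The main comparison follows the column names with 3 libraries against 3. Beside it stand a comparison of the 4 libraries in which name and record agree, with NCa and NCc against siPrp19a and siPrp19c, and a comparison of all 6 libraries as recorded.

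Cells answer broken or unreplicated DNA through the kinases ATR and ATM. ATR is called to single-stranded DNA coated with replication protein A (RPA) and activates CHEK1, whereas ATM is activated at broken ends by the complex of MRE11, RAD50 and NBN and activates CHEK2. Breaks are mended by homologous recombination, which copies the sister chromatid, or by end joining, and crosslinks between strands are removed through the Fanconi pathway. Prp19, encoded by *PRPF19*, is a core splicing factor and a ubiquitin ligase that is also known to act on RPA-coated DNA in ATR signalling. The 51 genes were divided by role into ATR signalling, ATM and break signalling, homologous recombination, the Fanconi pathway, end joining, and single-strand and excision repair.

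The targeted gene was examined first because it bears on the contradiction between names and record. *PRPF19* was at 83.0, 83.1 and 93.0 FPKM in NCa, NCb and NCc and at 19.6, 19.1 and 18.5 FPKM in siPrp19a, siPrp19b and siPrp19c. Its level thus went with the column name in all 6 libraries and against the recorded group in NCb and siPrp19b. By column name this gave a log2 fold change of -2.12 ± 0.07 (SE) at an adjusted p of 0.000215 by the moderated test of limma. In the comparison of 4 libraries it was -2.15 ± 0.14 (SE) and the adjusted p 0.0266. As recorded it was -0.74, with an adjusted p of 1.00.

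The libraries did not differ from each other to the same degree. The numbers of reads recovered from the FPKM values lay between 14887132 and 19977811 per library. NCa and NCb were close, with a chi-square of 1.72 per degree of freedom over genes, and so were siPrp19b and siPrp19c with 2.59, whereas the other pairs lay between 18.1 and 46.7. The paper's methods state that biological replicates were made for each sample. Both close pairs differed by more than counting error, which technical repeats of 1 culture can also do. These distances therefore cannot tell separate cultures apart from repeats. Each library was counted on its own in the main comparison, and a fit that counts each close pair once is given beside it. Mitochondrial genes took 8.29% of the reads in siPrp19a and 5.15 to 5.49% in the other libraries. Markers of neuroblastoma were present. By column name, of 9 tested adrenergic markers 2 (22.2%) were lower and 1 was higher. Of all tested genes 5.37% were lower and 7.94% passed in either direction. A negative value was found for 8 of the 9, against 54.0% of all tested genes. The adrenergic list summed to 321 to 340 FPKM in the NC columns and 248 to 260 FPKM in the siPrp19 columns. *HAND2* was at 162 to 170 FPKM and at 117 to 144 FPKM in these columns (adjusted p = 0.101), and *TH* was at most at 0.662 FPKM. Of 7 tested mesenchymal markers 2 (28.6%) were lower and 0 were higher, and all 7 had a negative value. The mesenchymal list summed to 238 to 261 and 180 to 209 FPKM. Of the markers of other cell types, 7 of the 8 stayed below 1 FPKM on average. The exception, the leukocyte gene *PTPRC*, was at 24.9 to 30.7 FPKM in the NC columns and at 16.9 to 20.4 FPKM in the siPrp19 columns, and the part of these marker changes in the results below was not tested.

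By column name, 5 of the 51 genes were significantly lower in the siPrp19 libraries and 0 were significantly higher, at an adjusted p-value below 0.05 over all 13718 tested genes. These were *RAD1*, *EXO1*, *NBN*, *FANCD2* and *RAD54L*, whose mean level differed by -34.1 to -22.5%. They come from 4 of the 6 roles. The 5 lower genes are 9.80% of the members, against a background of 5.37% of all tested genes that were lower and 7.94% that passed in either direction. At an unadjusted p below 0.05 the share was 23.5% of the members (12 genes) and 23.6% of all tested genes. The median log2 fold change of the members was -0.10, and that of all tested genes -0.02. Of the members, 37 (72.5%) had a negative value, compared with 54.0% of all tested genes. RNA of the whole culture was measured, so fewer cells that express a gene and less RNA per cell cannot be told apart. The siPrp19 range lay below the NC range for 13 members, or 25.5%, against 18.1% of all tested genes, and above it for 0 members, against 13.2%.

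**Figure D1:**
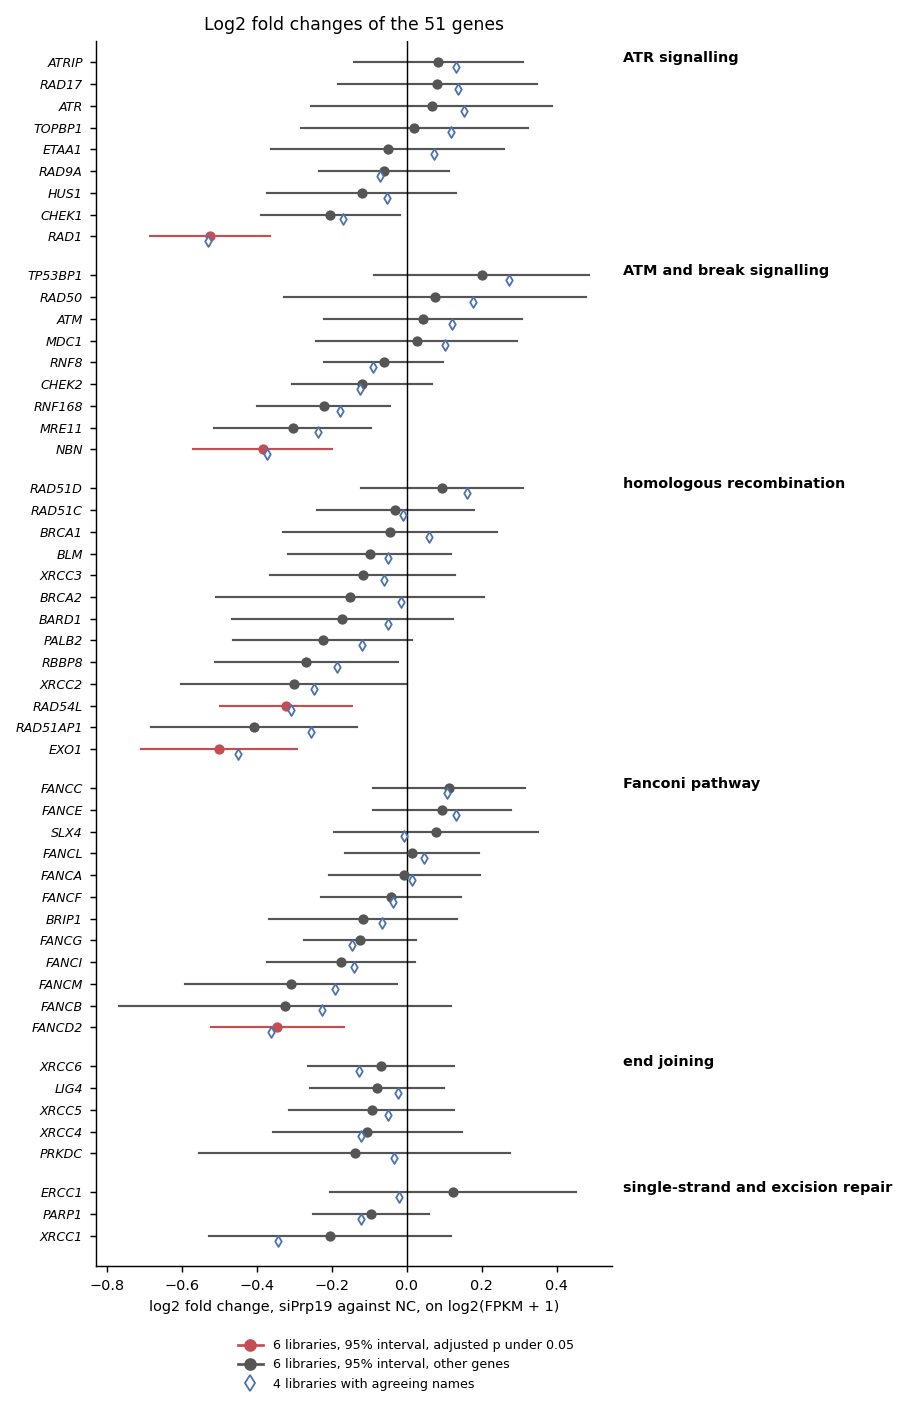
Log2 fold change of each of the 51 genes (rows, by role) in the siPrp19 against the NC libraries, on the log2(FPKM + 1) scale. Dots and bars give the estimate and 95% interval for 6 libraries by column name, red where the adjusted p was below 0.05, and open diamonds give the estimate from the 4 libraries with agreeing name and record. The 5 red genes lie between -0.52 and -0.32, and no interval of the 51 reaches a change of 1 unit.

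The 4 libraries in which name and record agree gave a smaller number of calls. They hold NCc and siPrp19a, the 2 libraries furthest apart (chi-square of 46.7 per degree of freedom), and 1 library of each close pair. None (0) of the 51 genes passed an adjusted p of 0.05 with limma, where the background was 0.0146% of all tested genes (2 genes, of which *PRPF19* was 1). With voom on the recovered reads 0 members also passed, against 1.92% of all tested genes (264 genes). At an unadjusted p below 0.05 there were 5 members, the same 5 genes as above, or 9.80% of the members, and 1685 of all tested genes (12.3%). Since these libraries are a subset of the 6, this does not count as a second experiment. The sign of the log2 fold change was shared by 46 of the 51 members. As recorded, 0 members passed, 0 had an unadjusted p below 0.05, and the background was 0% of all tested genes, of which 191 had an unadjusted p below 0.05.

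The promoters of the lower genes are shown because these genes moved in the same direction. The windows run from 250 bases before to 50 bases after the RefSeq start site farthest upstream on GRCh38.p14, in the direction of transcription. They are chr5:34915455-34915754 (minus strand) for *RAD1*, chr1:241847954-241848253 (plus strand) for *EXO1*, chr3:10026187-10026486 (plus strand) for *FANCD2* and chr1:46247438-46247737 (plus strand) for *RAD54L*. In the gene annotation used for the levels, *RAD1* starts farther upstream, at 34918989, and its window does not hold that start. No window is shown for *NBN*. Capitals mark short elements known from promoters of cell cycle genes.
RAD1: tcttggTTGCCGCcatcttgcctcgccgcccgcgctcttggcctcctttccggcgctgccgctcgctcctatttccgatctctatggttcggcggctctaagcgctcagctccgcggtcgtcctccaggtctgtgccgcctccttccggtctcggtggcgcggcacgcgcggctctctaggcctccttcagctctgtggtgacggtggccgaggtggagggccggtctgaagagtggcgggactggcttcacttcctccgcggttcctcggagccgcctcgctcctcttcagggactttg
EXO1: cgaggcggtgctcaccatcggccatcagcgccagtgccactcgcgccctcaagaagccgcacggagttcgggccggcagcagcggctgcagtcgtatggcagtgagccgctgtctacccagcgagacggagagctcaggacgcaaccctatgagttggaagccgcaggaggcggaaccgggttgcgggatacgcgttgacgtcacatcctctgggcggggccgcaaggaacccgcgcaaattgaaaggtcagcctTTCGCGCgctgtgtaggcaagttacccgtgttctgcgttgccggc
FANCD2: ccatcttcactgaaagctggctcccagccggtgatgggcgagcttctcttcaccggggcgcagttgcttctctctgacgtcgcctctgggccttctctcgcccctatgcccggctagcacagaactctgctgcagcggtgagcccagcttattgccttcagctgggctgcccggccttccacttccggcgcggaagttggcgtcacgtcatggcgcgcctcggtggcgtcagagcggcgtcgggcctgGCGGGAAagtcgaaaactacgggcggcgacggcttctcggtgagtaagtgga
RAD54L: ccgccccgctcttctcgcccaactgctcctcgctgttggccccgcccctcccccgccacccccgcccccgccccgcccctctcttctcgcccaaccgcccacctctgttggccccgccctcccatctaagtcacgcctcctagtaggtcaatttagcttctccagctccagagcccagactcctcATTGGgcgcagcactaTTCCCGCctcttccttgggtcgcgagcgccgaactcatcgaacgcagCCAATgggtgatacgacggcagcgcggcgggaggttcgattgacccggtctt

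Letters searched on both strands were TTCCCGC or TTCGCGC or TTGCCGC or TTGGCGC for the E2F element, CCAAT for the CCAAT box, and TTTGAA or TTCGAA for the cell cycle homology region (CHR). No 2 marked elements overlap. With the start site counted as 0, the E2F letters lay at -244 to -238 in *RAD1*, at 5 to 11 in *EXO1*, at -2 to 4 in *FANCD2* and at -49 to -43 in *RAD54L*. *RAD54L* also held CCAAT at -65 to -61 and at -2 to 2. The CHR letters were in 0 of these 4 windows. Of the 46 members with a window in the RefSeq table, 23 (50%) held the E2F letters, compared with 21.2% of 9532 windows of tested genes and 13% of all 27305 windows. CCAAT was in 47.8% of the members' windows and 37.1% of those of tested genes, and the CHR letters were in 10.9 and 11.1%. A match of letters is a description and does not show that a factor binds there.

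The genes of ATR signalling were ATR and its partner *ATRIP*, the activators *TOPBP1* and *ETAA1*, the checkpoint clamp of *RAD9A*, *HUS1* and *RAD1*, its loader *RAD17*, and the effector kinase *CHEK1*. Of these 9 genes, 1 (11.1%) was lower and 0 were higher, against 5.37% of all tested genes lower. *RAD1* (chromosome 5, 34905264 to 34918989, minus strand) was at 8.28, 8.11 and 8.51 FPKM in the NC libraries and at 5.19, 5.38 and 5.83 FPKM in siPrp19a, siPrp19b and siPrp19c. The groups did not overlap, and the highest siPrp19 value was well under the lowest NC value. The log2 fold change of *RAD1* came to -0.52 ± 0.07 (SE) and the adjusted p 0.00819. In the 4 libraries it was -0.53 with an adjusted p of 0.182, and as recorded -0.18 with an adjusted p of 1.00. *RAD1* shares 7.12% of its exon bases with *BRIX1* on the opposite strand, which was at 12.5 to 17.0 FPKM.

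The other clamp subunits gave values of -0.06 for *RAD9A* (adjusted p = 0.672) and -0.12 for *HUS1* (adjusted p = 0.554), and the loader *RAD17* a value of 0.08 (adjusted p = 0.712). The log2 fold change of *ATR* was 0.07 with a 95% interval of -0.26 to 0.39, and that of *ATRIP* was 0.08 with an interval of -0.14 to 0.31. The level of *ATRIP* is uncertain, since 27.9% of its exon bases are shared with *TREX1* on the same strand, which was listed at 0 FPKM. *CHEK1* was at 4.65 to 4.73 FPKM in the NC columns and at 3.72 to 4.40 FPKM in the siPrp19 columns. Its groups did not overlap, yet its value of -0.20 did not pass (adjusted p = 0.176). *TOPBP1* had the highest level of the role, with 18.3, 19.2 and 14.1 FPKM in NCa, NCb and NCc and 19.4, 16.9 and 15.9 FPKM in the siPrp19 libraries. The groups overlapped, and its value of 0.02 ± 0.13 (SE) did not pass (adjusted p = 0.944). *ETAA1* was at -0.05 (adjusted p = 0.855).

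**Figure D2:**
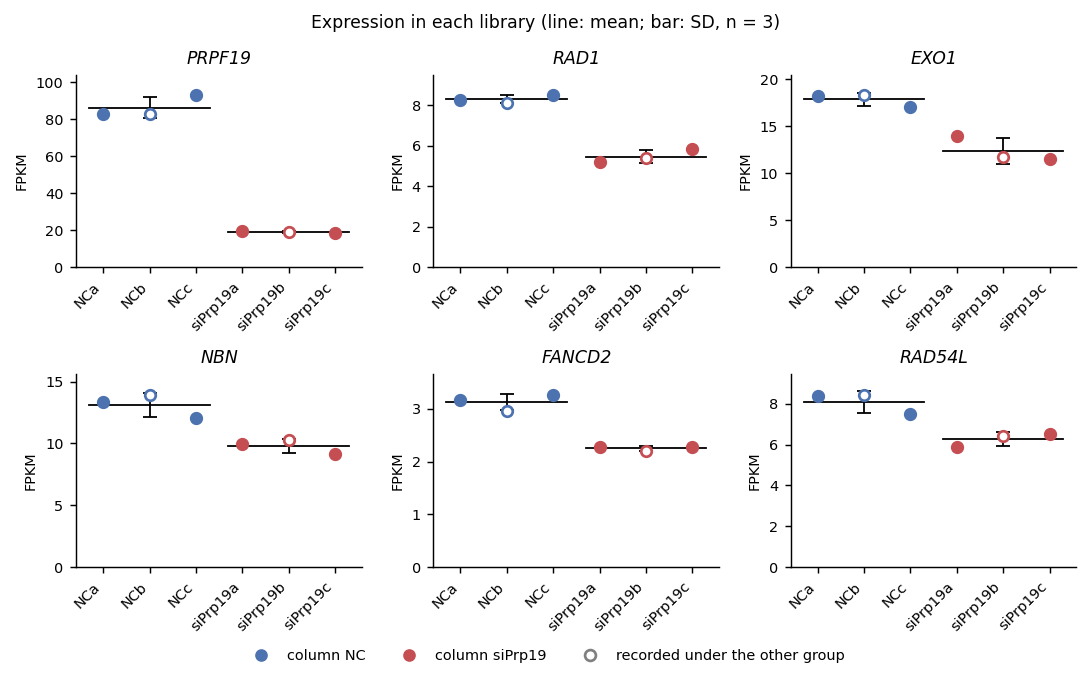
FPKM in each library (horizontal axis) for PRPF19 and the 5 members that passed the test, with lines at the mean and bars for the SD of the 3 libraries of a column group. Open circles mark NCb and siPrp19b, which are recorded under the other group. In all 6 genes the siPrp19 columns lie below the NC columns, from 8.11 to 8.51 against 5.19 to 5.83 FPKM for RAD1.

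ATM and break signalling held the kinase *ATM*, its target *CHEK2*, the sensor complex of *MRE11*, *RAD50* and *NBN*, the adaptor *MDC1*, the ubiquitin ligases *RNF8* and *RNF168*, and *TP53BP1*, which restrains the resection of ends. Of these 9 genes, 1 (11.1%) was lower and 0 were higher, against 5.37% of all tested genes lower. *NBN* (chromosome 8, 89933336 to 90003228, minus strand) was at 13.4, 13.9 and 12.1 FPKM in NCa, NCb and NCc and at 10.00, 10.3 and 9.19 FPKM in siPrp19a, siPrp19b and siPrp19c. The groups did not overlap, and NCc was the NC library nearest to the siPrp19 libraries. This gave a log2 fold change of -0.38 ± 0.08 (SE) at an adjusted p of 0.0311. It was -0.37 in the 4 libraries (adjusted p = 0.326) and -0.11 as recorded (adjusted p = 1.00).

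Within the same complex, *MRE11* was at 2.78 to 3.15 FPKM in the NC columns and at 2.06 to 2.48 FPKM in the siPrp19 columns. Its groups did not overlap, and its value of -0.30 did not pass (adjusted p = 0.0888). *RAD50* was at 1.42, 1.46 and 0.666 FPKM in NCa, NCb and NCc and at 1.19 to 1.36 FPKM in the siPrp19 columns, a value of 0.08 (adjusted p = 0.833). This gene had the lowest mean of the 51, and its level is uncertain, since 79.7% of its exon bases are shared with another gene on the same strand. The ligase *RNF168*, also without overlap, had a value of -0.22 (adjusted p = 0.129). The other values were 0.04 for *ATM*, -0.12 for *CHEK2*, 0.03 for *MDC1*, -0.06 for *RNF8* and 0.20 for *TP53BP1*, the most positive value of the 51. None of these 5 passed (adjusted p between 0.374 and 0.913). For *TP53BP1*, 28.7% of the exon bases are shared with *TUBGCP4* on the opposite strand.

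Homologous recombination was the largest role with 13 genes, of which 2 (15.4%) were lower and 0 were higher, against 5.37% of all tested genes lower. A negative value was seen in 12 of the 13 (92.3%, against 54.0% of all tested genes), with a median of -0.17. In the 4 libraries 11 of the 13 were negative and the median was -0.06. As recorded 3 were negative and the median was 0.04. *EXO1*, the exonuclease that resects broken ends over long stretches and also acts in mismatch repair, lies on chromosome 1 from 241847967 to 241895148 on the plus strand. It was at 18.3, 18.3 and 17.1 FPKM in NCa, NCb and NCc and at 14.0, 11.7 and 11.5 FPKM in siPrp19a, siPrp19b and siPrp19c. The groups did not overlap, and siPrp19a was the highest of the siPrp19 libraries. This gave a log2 fold change of -0.50 ± 0.09 (SE) at an adjusted p of 0.0199. It was -0.45 in the 4 libraries (adjusted p = 0.293) and -0.10 as recorded (adjusted p = 1.00). No exon base of *EXO1* is shared with another gene.

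*RAD54L*, the motor protein that drives strand exchange, lies on chromosome 1 from 46247688 to 46278473 on the plus strand. It was at 8.36, 8.42 and 7.48 FPKM in NCa, NCb and NCc and at 5.89, 6.41 and 6.49 FPKM in the siPrp19 libraries, with no overlap. This gave a log2 fold change of -0.32 ± 0.07 (SE) at an adjusted p of 0.0466, the one nearest to the threshold among the 5. It was -0.31 in the 4 libraries (adjusted p = 0.406) and -0.09 as recorded (adjusted p = 1.00). Of its exon bases, 25.1% are shared with *LRRC41* on the opposite strand, which was at 15.8 to 17.4 FPKM. The strand setting of the counting is not given in the sources used here.

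Other genes of the role had values of similar size without passing. *RAD51AP1*, which aids strand invasion, was at 9.93 to 12.9 FPKM in the NC columns and at 7.48 to 9.35 FPKM in the siPrp19 columns, a value of -0.41 (adjusted p = 0.0824). *RBBP8*, which starts resection, was at 10.5 to 10.7 FPKM in the NC columns and at 10.2, 7.63 and 8.09 FPKM in siPrp19a, siPrp19b and siPrp19c, a value of -0.27 (adjusted p = 0.176). Neither gene overlapped between groups, but siPrp19a lay close to the NC libraries for *RBBP8*. The values of the mediators were -0.15 for *BRCA2*, -0.22 for *PALB2*, -0.17 for *BARD1* and -0.04 for *BRCA1*. *XRCC2* was at -0.30 (adjusted p = 0.212), *XRCC3* at -0.12, the helicase *BLM* at -0.10 and *RAD51C* at -0.03, whereas *RAD51D* was at 0.09. For *XRCC3*, 76.7% of the exon bases are shared with *KLC1* on the opposite strand.

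The Fanconi pathway held 12 genes, of which 1 (8.33%) was lower and 0 were higher, against 5.37% of all tested genes lower. The median was -0.08. *FANCD2* (chromosome 3, 10026414 to 10101930, plus strand) forms with *FANCI* the complex that is ubiquitinated at crosslinks. It was at 3.16, 2.96 and 3.26 FPKM in NCa, NCb and NCc and at 2.27, 2.20 and 2.27 FPKM in the siPrp19 libraries. The groups did not overlap, and the siPrp19 libraries lay close together. This gave a log2 fold change of -0.34 ± 0.08 (SE) at an adjusted p of 0.0396. It was -0.36 in the 4 libraries (adjusted p = 0.357) and -0.14 as recorded (adjusted p = 1.00). *FANCI*, the most abundant gene of the pathway, was at 15.7, 15.5 and 14.3 FPKM in NCa, NCb and NCc and at 14.7, 12.9 and 12.4 FPKM in the siPrp19 libraries. Its groups overlapped through siPrp19a, and its value of -0.17 ± 0.08 (SE) did not pass (adjusted p = 0.262).

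*FANCB*, a subunit of the core complex encoded on the X chromosome, was at 4.03 and 3.94 FPKM in NCa and NCb, and at 2.15 FPKM in NCc, within the range of 2.15 to 2.68 FPKM of the siPrp19 columns. Its value was -0.32 with a 95% interval of -0.77 to 0.12 (adjusted p = 0.351). Without NCc it was -0.55, with an adjusted p of 0.0262, in a fit where 9.87% of all tested genes passed. The NC group then held only the close pair of NCa and NCb. The translocase *FANCM* did not overlap between groups, and its value of -0.31 did not pass (adjusted p = 0.177). The core subunit *FANCG* also did not overlap, with a value of -0.13 (adjusted p = 0.287). The other core subunits were at -0.01 (*FANCA*), 0.11 (*FANCC*), 0.09 (*FANCE*), -0.04 (*FANCF*) and, for the ligase *FANCL*, 0.01. The nuclease scaffold *SLX4* was at 0.08 and the helicase *BRIP1* at -0.12.

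No gene of end joining or of single-strand and excision repair passed by column name, against 7.94% of all tested genes. Their smallest adjusted p-values were 0.590 and 0.424. These roles hold the most abundant of the 51 genes. The Ku subunits *XRCC5* and *XRCC6*, the strand break sensor *PARP1* and the kinase *PRKDC* had means above 20 FPKM and were at 38.0 FPKM or more in every library. The fifth gene in order, *TOPBP1*, reached at most 19.4 FPKM. *XRCC5* was at 85.9, 88.2 and 88.9 FPKM in NCa, NCb and NCc and at 92.8, 77.8 and 76.7 FPKM in siPrp19a, siPrp19b and siPrp19c. Its groups overlapped because siPrp19a was the highest of all 6 libraries, and its value was -0.09 ± 0.09 (SE) and the adjusted p 0.602. *XRCC6* was at -0.07 (adjusted p = 0.672), and the ligase *LIG4* and its partner *XRCC4* were at -0.08 and -0.10.

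*PRKDC* (chromosome 8, 47773108 to 47960183, minus strand), which encodes the catalytic subunit of the DNA-dependent protein kinase, showed how far 1 library could move a member. It was at 58.2, 58.3 and 38.0 FPKM in NCa, NCb and NCc and at 50.9, 45.5 and 41.5 FPKM in the siPrp19 libraries. NCa and NCb were above all siPrp19 libraries, and NCc was below all of them. The value was -0.14 ± 0.18 (SE), with a 95% interval of -0.55 to 0.28 (adjusted p = 0.689). Without NCc it was -0.34, with an adjusted p of 0.0798, and the NC group then held only the close pair of NCa and NCb. *PARP1* was at 70.3, 67.9 and 68.4 FPKM in NCa, NCb and NCc and at 62.7, 66.0 and 64.5 FPKM in the siPrp19 libraries. Its groups did not overlap, but the value of -0.10 ± 0.07 (SE) did not pass (adjusted p = 0.436). *XRCC1*, the scaffold of single-strand break repair, was at 10.9, 10.4 and 11.8 FPKM in NCa, NCb and NCc and at 7.43, 11.0 and 10.2 FPKM in siPrp19a, siPrp19b and siPrp19c. Only siPrp19a lay clearly under the NC libraries, and the value of -0.20 ± 0.14 (SE) did not pass (adjusted p = 0.424). The nuclease subunit *ERCC1* was at 0.12 (adjusted p = 0.645), with 28.6% of its exon bases shared with *POLR1G* on the opposite strand.

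**Figure D3:**
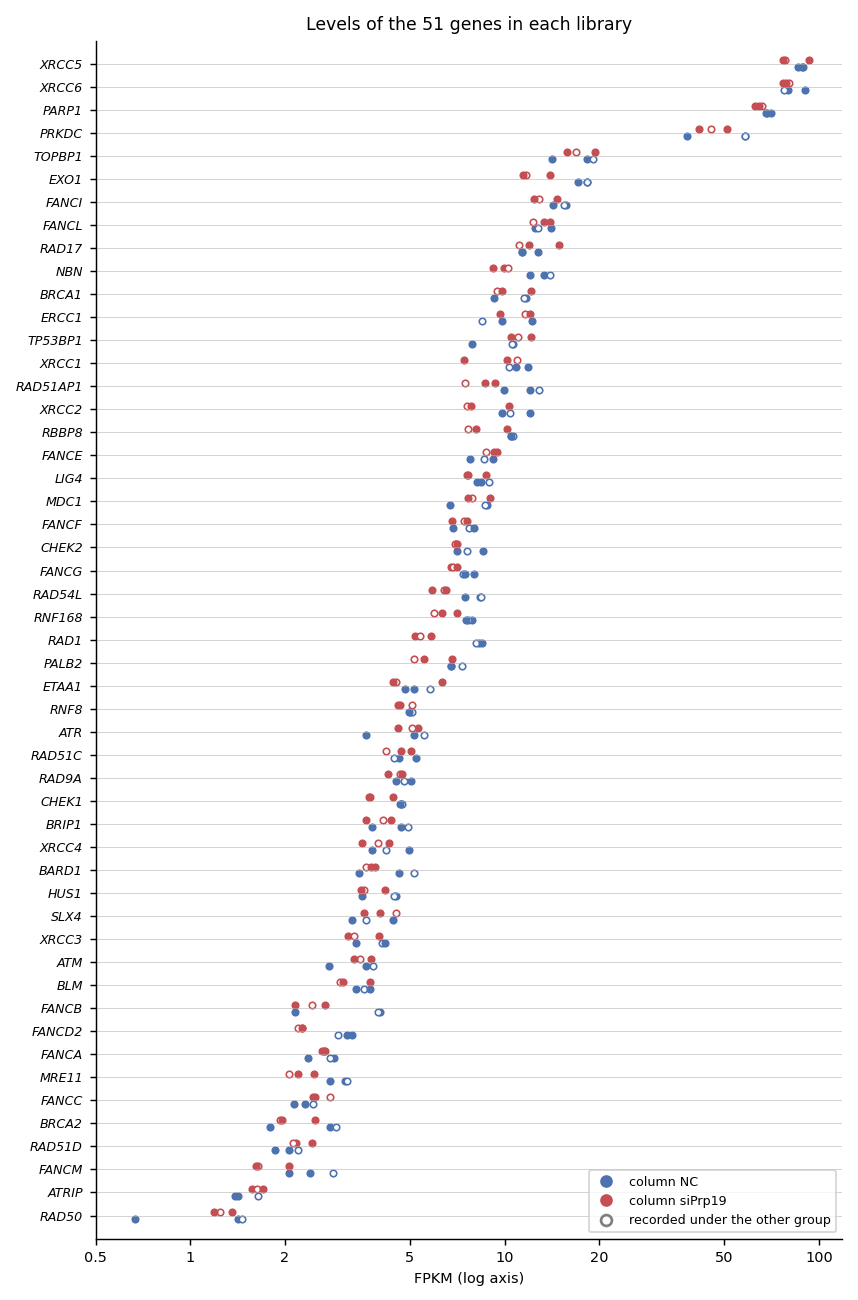
FPKM (log axis) of each of the 51 genes (rows, ordered by mean) in the 6 libraries, with NC columns in blue, siPrp19 columns in red and open circles for NCb and siPrp19b. The 4 genes at the top stand apart from the other 47, and for RAD50, PRKDC and FANCB the lone low blue point is NCc.

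FPKM is a value per length, so levels of different genes were set side by side, but only roughly. The length is that of all merged exons of a gene, which need not be that of the transcript expressed. At least 10% of the exon bases are shared with another gene for 12 of the 51. A mean of at most 5 FPKM was found for 23 of the 51 genes, a mean above 5 and up to 10 for 13, above 10 and up to 20 for 11, and above 20 for 4. At the top, *XRCC5* and *XRCC6* overlapped in their values over the libraries, whereas *XRCC6* was above *PARP1*, *PARP1* above *PRKDC* and *PRKDC* above *TOPBP1* in every library. The other 46 pairs of neighbours in this order overlapped. The smallest number of reads behind any value was 112, for *RAD50* in NCc, and the largest was 14218, for *PRKDC* in NCa. The 95% interval of the log2 fold change had a median half-width of 0.23 over the members, so changes smaller than this would mostly not have been detectable. The interval is not adjusted for the number of genes, and the adjusted p asked for more. The smallest change that passed was -0.32, for *RAD54L*, and *RAD51AP1* at -0.41 did not pass.

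NCc stood apart from NCa and NCb in a way that followed exon length. Its value was lower than the mean of the other NC libraries for 36 of the 51 members, with a median of -0.09 on the log2 scale, whereas it was lower for 47.1% of all tested genes. The median difference was -0.03 in the third of the members with the shortest exons (up to 4747 bases in total) and -0.28 in the third with the longest (from 7689 bases). Across the 51 genes, the difference and log2 exon length had a Pearson r of -0.50 and a Spearman rho of -0.52. The points share 3 libraries, and over all tested genes the values were -0.15 and -0.40. For *ATR*, with 12496 bases of exon, NCc was at 3.63 FPKM against 5.14 and 5.54 FPKM in NCa and NCb. Among the lower genes, the difference was positive for *RAD1* and *FANCD2*, at 0.05 and 0.07, and negative for *EXO1*, *NBN* and *RAD54L*, at -0.09, -0.16 and -0.15. The library siPrp19a was above the mean of siPrp19b and siPrp19c for 33 members (64.7%, against 50.9% of all tested genes). With exon length this difference had a Spearman rho of 0.09 over the members and 0.23 over all tested genes. With each library corrected for exon length, *RAD1*, *EXO1* and *NBN* passed together with *MRE11*, where 10.9% of all tested genes passed, whereas *FANCD2* (adjusted p = 0.0521) and *RAD54L* (adjusted p = 0.0607) did not.

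**Figure D4:**
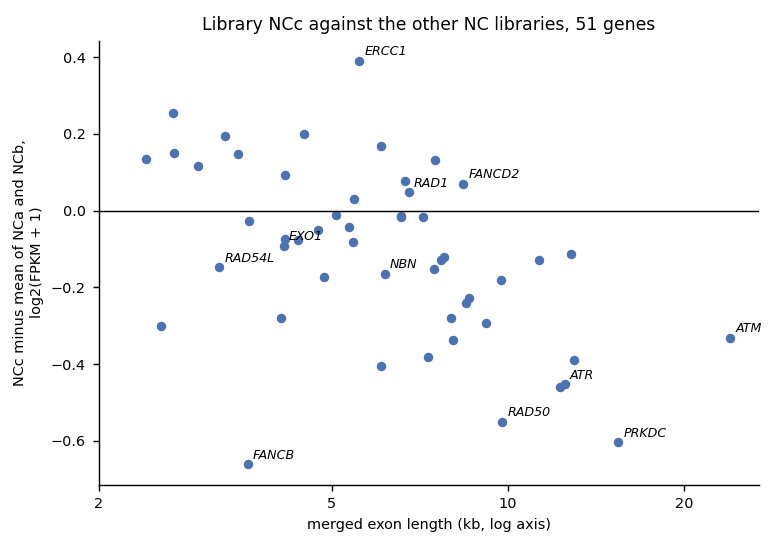
Difference between NCc and the mean of NCa and NCb on the log2(FPKM + 1) scale (vertical axis) against merged exon length in kb (log axis) for the 51 genes. Points fall below 0 mostly at longer exons, with PRKDC at -0.60 and RAD50 at -0.55, whereas FANCB lies at -0.66 with shorter exons.

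The calls depended on single libraries to different degrees. *RAD1* passed in each of the 6 fits that left out 1 library, with an adjusted p between 0.0151 and 0.0493. *EXO1* passed in 2 of these 6 fits, *NBN* and *RAD54L* in 1 and *FANCD2* in 0. Without NCa, without NCb, without siPrp19b or without siPrp19c, *RAD1* was the single member called, where 1.92, 2.44, 1.97 and 1.84% of all tested genes passed. Without NCc there were 6 members called, which included *FANCB* and *RAD51AP1*, against 9.87% of all tested genes. Without siPrp19a there were 3, which included *RBBP8*, against 7.53%. The fits without NCc and without siPrp19a left only a close pair in the reduced group. When NCa was averaged with NCb and siPrp19b with siPrp19c, so that each close pair counted as 1 library, 0 members passed with limma, as did 0.0146% of all tested genes (2 genes), and the adjusted p of *RAD1* was 0.154. An unadjusted p below 0.05 was reached in that fit by 5 members (9.80%), which were the 5 lower genes, and by 12.5% of all tested genes. The log2 fold changes of the 5 genes stayed negative in every alternative tried by column name.

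**Figure D5:**
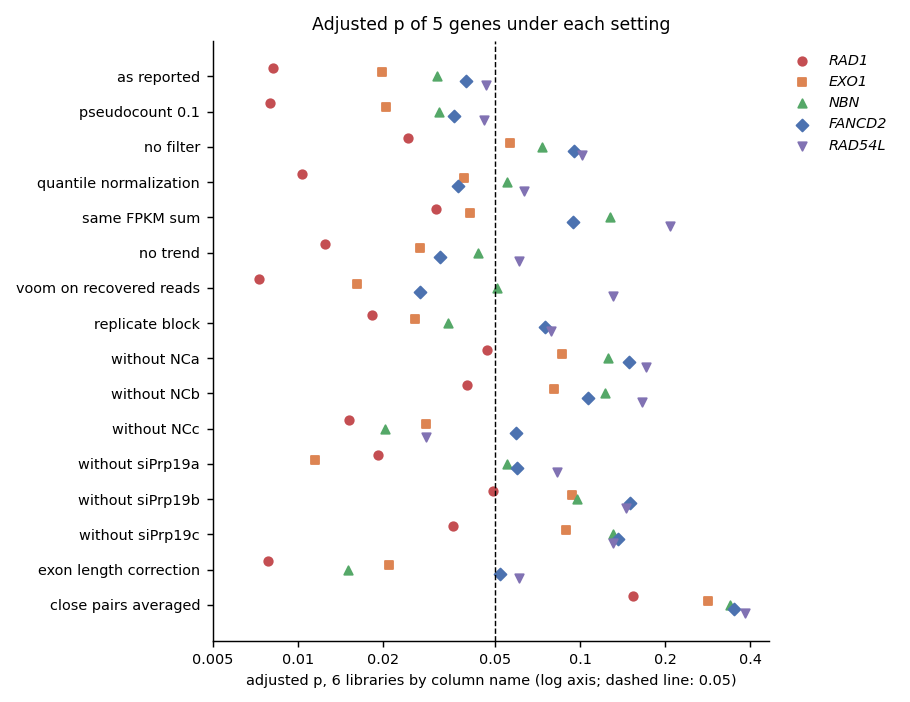
Adjusted p (log axis) of the 5 lower genes in the comparison by column name under each processing alternative (rows), with a dashed line at 0.05. RAD1 lies left of the line in all rows but the last, in which the close pairs were averaged, and the other genes lie on both sides.

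Other DNA repair genes were examined for context in a list of 104 genes outside the 51, of which 96 were tested. By column name 9 were lower and 0 were higher, or 9.38% of those tested, with a median of -0.03, again against a background of 5.37% lower. An unadjusted p below 0.05 was reached by 24.0% of them. The change largest in size was in *USP1*, the enzyme that removes ubiquitin from *FANCD2* and *FANCI*. It was at 28.0, 29.9 and 27.9 FPKM in NCa, NCb and NCc and at 18.5, 15.8 and 16.7 FPKM in the siPrp19 libraries, a log2 fold change of -0.72 (adjusted p = 0.00504). Next came *EME1*, a subunit of a nuclease for branched DNA, at -0.47 (adjusted p = 0.00963), and the glycosylase *NEIL3* at -0.44 (adjusted p = 0.0128). *APEX1*, the endonuclease of base excision repair, was at -0.44 (adjusted p = 0.0466). Base excision repair held 4 of the 9 among 20 genes tested, RPA and fork protection 2 of 14, other recombination genes 2 of 23 and other Fanconi genes 1 of 12. Other end joining, mismatch repair and nucleotide excision repair held 0 of 10, 0 of 6 and 0 of 11. In the 4 libraries 0 of the 96 passed with limma (0.0146% of all tested genes), 9 (9.38%) had an unadjusted p below 0.05 (12.3%), and voom called 0 (1.92%). By column name, 1 to 2 of the 96 passed when NCa, NCb, siPrp19b or siPrp19c was left out, against 1.84 to 2.44% of all tested genes.

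Of 20 genes of proliferation, 6 (30%) were lower by column name and 0 were higher, against the background of 5.37% lower. A negative log2 fold change was found for 19, and the median was -0.30. The exception, named after its values were seen, was the cyclin *CCNE2*, at 1.92 to 2.34 FPKM in the NC columns and 2.89 to 3.29 FPKM in the siPrp19 columns, a value of 0.37 that did not pass (adjusted p = 0.0519). Their summed level was 744 to 760 FPKM in the NC columns and 566 to 609 FPKM in the siPrp19 columns. *TYMS*, which makes thymidylate for replication, was at 17.0, 17.9 and 17.8 FPKM in NCa, NCb and NCc and at 7.02, 8.17 and 7.75 FPKM in the siPrp19 libraries, a log2 fold change of -1.10 (adjusted p = 0.00182). The mitotic cyclin *CCNB1* was at -0.59, the kinase *CDK1* at -0.48, and the mitotic kinases *AURKA* and *PLK1* at -0.42 and -0.40 (adjusted p between 0.00985 and 0.0240). The part of this in the levels of the repair genes was not tested. In the 4 libraries 0 of these 20 genes passed with limma, 9 (45%) had an unadjusted p below 0.05, against 12.3% of all tested genes, and voom called 1. By column name, 1 to 3 of the 20 passed when NCa, NCb, siPrp19b or siPrp19c was left out, against 1.84 to 2.44% of all tested genes.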

How the data were processed

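RNA-seq libraries of SK-N-AS cells were made from 3 samples labelled NC and 3 labelled siPrp19 with the NEBNext Ultra RNA kit. According to the submitters' processing notes, the authors used HISAT2 2.0.5, featureCounts 1.5.0-p3 and hg38; strandedness is not given in the sources used here. The authors deposited FPKM values, 1 table per library. The counts that the authors tested with DESeq2 were not used here, since the deposited unit is FPKM, so limma took the place of a count test. FPKM multiplied by merged exon length (GENCODE 29) gave whole reads for 100% of values within 0.05 read, between 14887132 and 19977811 per library. Intervals that rest on reads cover counting error only.

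Of 58735 identifiers, 58207 were given their present symbol from a names table and the rest that of GENCODE 29, and coordinates are on GRCh38. Each column was matched to the sample whose description it carries. Genes with a mean of at least 1 FPKM were kept, and log2(FPKM + 1) was fitted with limma 3.58.1 (R 4.3.3), which fitted a trend of variance on mean level, and p-values were adjusted over 13718 genes by Benjamini-Hochberg. Tests were two-sided. A fold change on this scale understates that of weakly expressed genes. The paper's methods state biological replicates, but nothing in the labels shows which libraries came from separate cultures. The p-values thus measure the spread between these libraries, which may be technical. The fit was tested on simulated independent libraries with larger changes than those of the lower genes, so that test does not bear on these calls.

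The members and gene lists were chosen with earlier results of these data known. Values in every library are given for *PRPF19*, for members past an adjusted p of 0.05 and, per role, for the member with the highest mean and the one with the largest change. Up to 5 genes past an adjusted p of 0.05 are named from the other repair genes and from proliferation, and members named beyond this were chosen after their values were seen. Alternatives were a pseudocount of 0.1, no filter, quantile normalization, the same FPKM sum, no trend, voom on the recovered reads, a block for the replicate number, and the omission of each library in turn. A correction for exon length and the averaging of close pairs were added after seeing the data. Python 3.11.15, pandas 2.3.3 and matplotlib 3.10.9 were used. Enrichment was not analysed here, and some genes of these lists are not reported by name.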

Additional observations from a re-analysis of the deposited data

How the results depend on the processing

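By column name, 5 members passed, and the number was 1 with no filter, 3 with quantile normalization, 2 with the same FPKM sum and 3 with voom. It was 0 with close pairs averaged and 1 to 6 over the fits that left out a library. Of all 13718 tested genes, 1089 passed (736 lower and 353 higher), compared with 679 with the same FPKM sum, 2 with close pairs averaged and 253 to 1354 without a library. With no filter 34468 genes were tested, and 512 of them passed. The split was 586 lower and 501 higher with quantile normalization and 614 lower and 753 higher with voom, which moved the median of all genes to 0.01 and 0.06. The median of the members stayed negative by column name (-0.06 with quantile normalization and -0.05 with voom) and was 0.01 with voom in the 4 libraries. Of the other repair genes, 9 passed, compared with 3 with no filter, 3 with the same FPKM sum, 4 with no trend, 4 with voom, 0 with close pairs averaged and 1 to 9 without a library. Of the proliferation genes, 6 passed, compared with 0 with close pairs averaged and 1 to 8 without a library.

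In the 4 libraries 2 genes passed, compared with 0 with no filter, 264 with voom and 0 to 70 without a library. Of the proliferation genes there, 0 passed, and 1 with voom and 0 to 1 without a library. *PRPF19* kept its direction there, at -2.15 with an adjusted p of 0.286 with no filter, and at -2.23 to -2.07 without a library, where its adjusted p was above 0.05 without NCa (0.113) and without NCc (0.242). A fit that leaves 1 library in a group assumes that it varies like the others.

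Whether the replicate numbers pair the libraries could not be told. By column name, the deviations of the libraries numbered 1, 2 and 3 from their group means correlated at 0.13, -0.05 and 0.20. Pairs of unlike number lay between -0.20 and 0.13. In the 4 libraries pairs of the same number were at 0.21 and the others at -0.21, values that differ only in sign because each group holds 2 libraries. With the replicate number as a block, 3 members (*RAD1*, *EXO1* and *NBN*) and 928 of all genes passed by column name. In the 4 libraries the block left 0 genes, and *PRPF19* was at -2.15 with an adjusted p of 0.0894. As recorded, 0 genes passed with or without the block.

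Under at least 1 alternative, 17 of the 51 members changed sign by column name and 28 in the 4 libraries, none (0) of them among the 5 lower genes, and the cause was not tested. Among the members that led their role by level or by size of change, those that changed sign by column name were *PARP1* (0.054) and *XRCC5* (0.056) with quantile normalization, and *TOPBP1*, at -0.11 to 0.10 when a library was left out (negative without NCc or siPrp19a). In the 4 libraries these were *PARP1* (0.073), *PRKDC* (0.14) and *XRCC5* (0.15) with quantile normalization, *PRKDC* (0.016) with the same FPKM sum, and *PRKDC* (0.048) and *XRCC5* (0.032) with voom. When a library was left out there, *PRKDC* ranged from -0.33 to 0.27, *XRCC5* from -0.19 to 0.085 and *TOPBP1* from -0.057 to 0.29.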

Other observations

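Several well-known repair genes outside the 51 were listed at low values, and in some of them most exon bases are shared with another gene on the same strand. *NHEJ1*, an end joining factor, was at 0.0872 to 0.199 FPKM with 65.4% of its exon bases shared, *RAD54B* at 0.613 to 0.953 FPKM with 59.1% and *ERCC5* at 0.670 to 1.11 FPKM with 82.3%. *MCM9* was at 0.315 to 0.435 FPKM with 0% of its exon bases shared on the same strand. These genes fell under the filter and were not tested. Whether shared bases account for the low values was not tested.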
